A study of Mus musculus with 6 samples.

Results

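Cells build fatty acids from acetyl-CoA, lengthen them at the endoplasmic reticulum and put double bonds into them, and 10 genes of these steps were followed here in alveolar macrophages, which live in the air sacs of the lung and clear particles and surfactant from them. The genes were taken by symbol from the count table, which lists 25664 genes, and all 10 were found. 3 encode enzymes of synthesis (Acly, Acaca and Fasn), and 2 are grouped here as makers of very long chains (Elovl1 and Hacd2). The grouping of Hacd2 follows its place in the elongation cycle and not a chain length that it chooses. 2 act on palmitate and its products (Elovl6 and Scd2) and 3 act on polyunsaturated chains (Elovl5, Fads1 and Fads2). RNA was sequenced from 3 libraries of Vav1cre/+ Pex5fl/fl mice, called Pex5-deficient, and 3 of Pex5fl/fl mice without the recombinase, called control. Both groups carry the floxed Pex5 alleles, and they differ in the Vav1-driven recombinase, which is active in blood-forming cells and all their progeny rather than in alveolar macrophages alone. Each library came from 50000 macrophages sorted from lavage fluid. The labels used here give no age or sex and do not state that each library is a different mouse. The p-values therefore reflect the spread of these libraries only, which may be partly technical. Values of single libraries are listed in replicate order, 1 to 3.

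The pathway runs in a fixed order. ATP citrate lyase (Acly) makes acetyl-CoA in the cytosol, acetyl-CoA carboxylase (Acaca) turns it into malonyl-CoA, and fatty acid synthase (Fasn) joins these units into palmitate. An elongation cycle of condensation, reduction, dehydration and a further reduction then adds units of malonyl-CoA. The ELOVL enzymes do the condensation and choose the chain length, and the HACD enzymes do the dehydration. Desaturases of the SCD and FADS families place the double bonds. Peroxisomes, whose matrix enzymes are brought in by PEX5, shorten the very long chains that this machinery makes. Alveolar macrophages also take up and break down the lipids of surfactant.

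Total counts were 13325609 to 19413838 per Pex5-deficient library and 14226108 to 18987200 per control library. Pex5 itself measured 29.6 to 36.3 CPM (counts relative to the scaled library total) in Pex5-deficient and 29.7 to 33.0 CPM in control libraries. The labels do not say which exons are floxed and the counts are per gene, so these values do not check the genotypes. Pex5-deficient replicate 2 stood apart, with 30.4% of its counts in the 50 most abundant genes against 38.3% to 42.1% in the others. Its scaling factor by the trimmed mean of M values (TMM) was 1.34, against 0.90 to 1.03. Alveolar macrophage markers were abundant, with the chitinase-like gene Chil3 at 26032 to 63066 CPM. Siglecf, a sialic acid-binding receptor used to recognise these cells, was at 618 to 669 CPM in control and 177 to 254 CPM in Pex5-deficient libraries. Fabp4, a fatty acid-binding protein of these cells, was at 43.9 to 115 CPM in control and 171 to 251 CPM in Pex5-deficient libraries. These were the 2 called genes among the 10 markers of the cell type, Siglecf lower and Fabp4 higher. Of the 10, 7 had a negative and 3 a positive log2 fold change of Pex5-deficient over control, with a median of -0.38. Without overlap of the groups 3 were lower and 1 higher, against 13.1% and 13.0% of all tested genes.

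2 of the 10 genes passed the test between the groups, Elovl6 lower and Hacd2 higher. Genes were tested by the quasi-likelihood method of edgeR, p-values were adjusted after Benjamini and Hochberg for the 11011 genes that entered, and a gene is called here at an adjusted p under 0.05. By that rule 3.25% of all tested genes were called, 1.74% higher and 1.51% lower. 9 of the 10 genes passed the filter on low counts and entered the test, and Fads2 did not. To show where the called genes lie, stretches of the promoter of each are printed here as RefSeq gives them (GRCm38.p6, plus strand, 5′ to 3′). The stretch of Elovl6 is chr3:129532136-129532256 and that of Hacd2 is chr16:35022171-35022420, both ending before the nearest exon of any gene that GENCODE release M21 (GRCm38) annotates there or at the RefSeq start site. Capitals mark the GC box GGGCGG on either strand, the only one of 5 motifs searched that these stretches hold.
Elovl6: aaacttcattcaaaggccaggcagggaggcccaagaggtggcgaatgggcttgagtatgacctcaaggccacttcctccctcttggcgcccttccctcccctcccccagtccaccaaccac
Hacd2: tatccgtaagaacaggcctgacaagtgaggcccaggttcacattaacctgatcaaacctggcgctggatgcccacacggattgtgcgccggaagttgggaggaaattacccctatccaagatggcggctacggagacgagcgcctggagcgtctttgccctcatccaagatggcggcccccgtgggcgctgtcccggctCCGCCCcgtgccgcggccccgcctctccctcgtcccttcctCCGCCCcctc

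RefSeq windows were found for 8 of the 10 genes, 9 windows in all because Elovl1 has 2 start sites. Letters were searched on both strands in the 250 bases before each start site, and a match describes the sequence and does not show a binding site. The GC box, a motif of Sp1-type factors, stood 2 times in the Hacd2 window and 0 times in that of Elovl6. The main Elovl1 window held it 5 times and that of Acly 4 times. It occurred in 32.7% of the 32851 windows of all genes. The CCAAT box occurred in 33.8% of all windows and stood 3 times before Fasn, 2 times before Elovl5 and 1 time before the main Elovl1 start. The E-box CACGTG, in 6.02% of all windows, was found before Elovl5. The sterol regulatory element TCACNCCAC, in 1.05% of all windows, and the LXR element, AGGTCA repeated after 4 free bases and present in 0.0152%, were found in none of the 9 windows. Matches can share bases, as the CCAAT box and a GC box do before Elovl1 and 2 of the CCAAT boxes do before Fasn. The window of Acaca lies at an internal start site, and other spellings of the same elements were not searched.

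**Figure D1:**
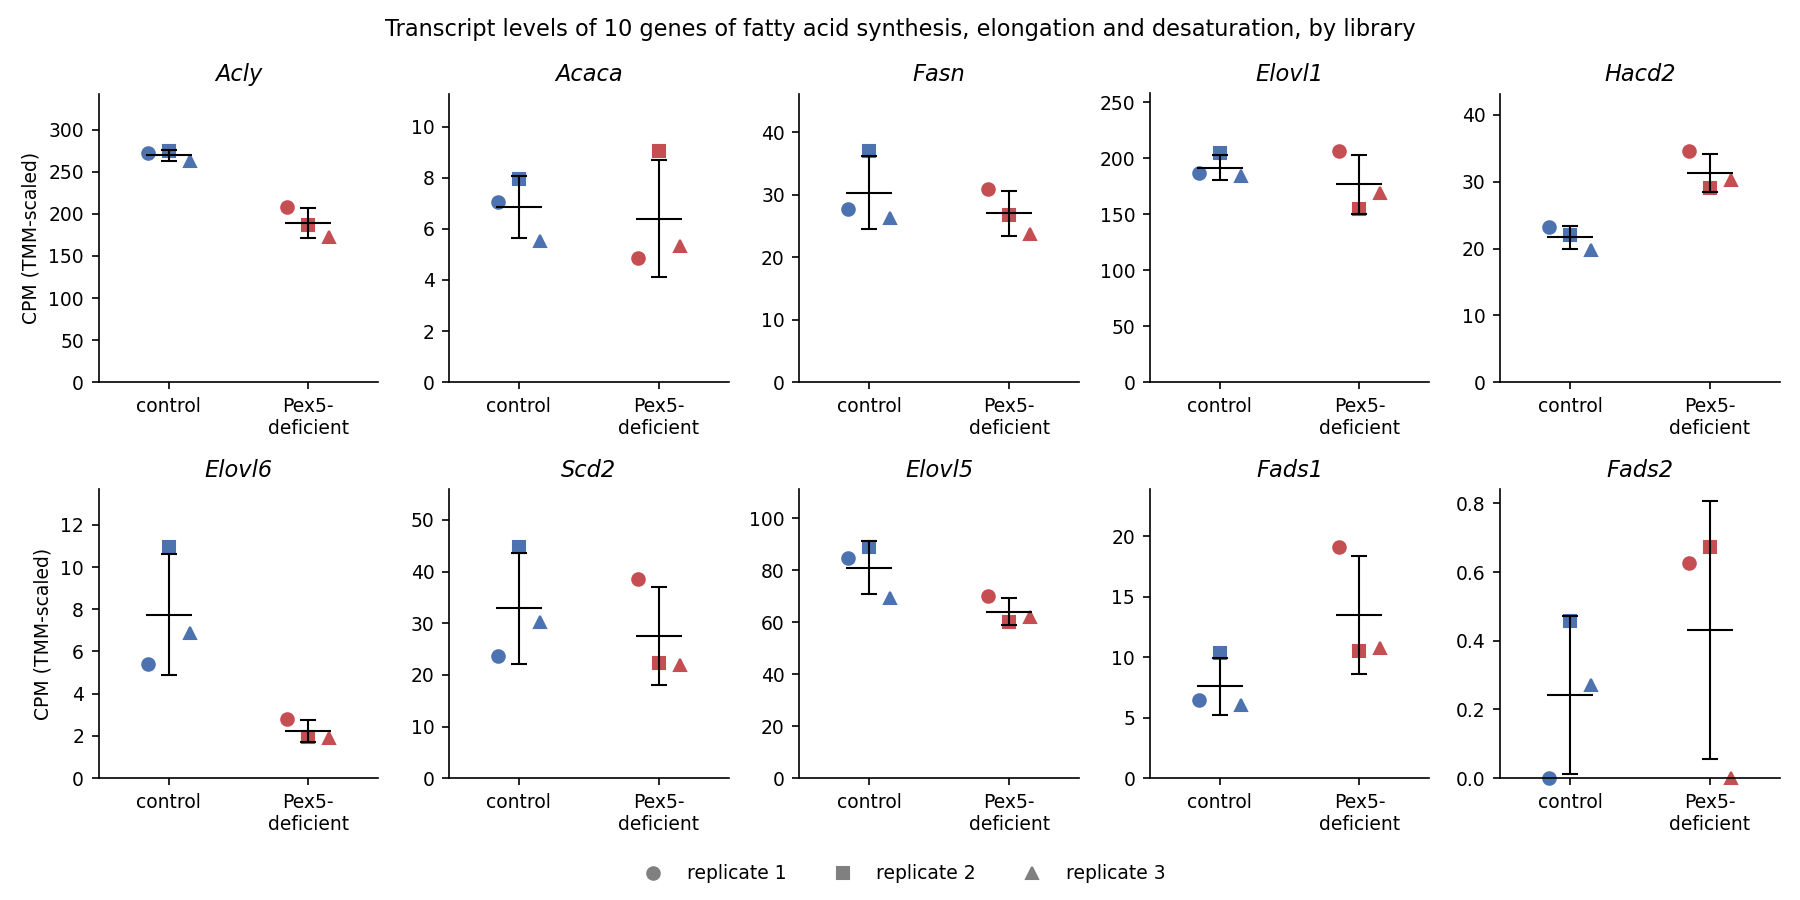
TMM-scaled CPM (y axis, from 0 in each panel) of the 10 genes in control (blue) and Pex5-deficient (red) libraries, with marker shape for replicate number and black lines for mean and SD, n = 3 per group. Elovl6 lies between 5.40 and 10.9 CPM in control and between 1.92 and 2.82 CPM in Pex5-deficient libraries, and Hacd2 between 19.8 and 23.2 and between 29.1 and 34.6 CPM.

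Levels here are CPM on TMM-scaled library sizes. Acly lies on chromosome 11 from 100476353 to 100528000 (GRCm38, minus strand). It measured 272, 274 and 262 CPM in the 3 control libraries and 208, 186 and 173 CPM in the 3 Pex5-deficient ones. Each Pex5-deficient library was below each control library. The means were 269.7 ± 6.40 and 188.9 ± 17.8 CPM (SD, n = 3 per group). Acly had a log2 fold change of -0.51 ± 0.12 (SE, 95% interval -0.78 to -0.25, adjusted p = 0.0532 by edgeR's quasi-likelihood test), so it did not pass. Of 14 alternative settings DESeq2 alone called Acly (adjusted p = 0.00147), and the other 13 gave adjusted p-values from 0.0532 to 0.437. In bulk RNA of this kind, fewer cells that express a gene and less RNA per cell cannot be told apart.

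Fasn, on chromosome 11 from 120805846 to 120824547 (minus strand), was at 27.8, 36.9 and 26.2 CPM in control and 30.8, 26.7 and 23.6 CPM in the 3 Pex5-deficient ones. The groups overlapped, and the log2 fold change was -0.17 ± 0.16 (95% interval -0.53 to 0.19, adjusted p = 0.609 by edgeR). That interval holds folds from 0.694 to 1.14, so a larger change of the synthase transcript in either direction lies outside it. Acaca, on chromosome 11 from 84129672 to 84401651 (plus strand), had 62 to 215 counts in Pex5-deficient and 82 to 139 counts in control libraries. The highest library was Pex5-deficient replicate 2, at 9.03 CPM, and the lowest was Pex5-deficient replicate 1, at 4.85 CPM. Its log2 fold change was -0.08 ± 0.27 (adjusted p = 0.905), and without Pex5-deficient replicate 2 it was -0.42 (adjusted p = 0.331). Of the 100-base words in the longest Acaca transcript, 42.8% also occur in the transcript of Gm5182, which the count table does not list. How reads of these words were counted is not known, so the level of Acaca is uncertain.

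Elovl1 makes saturated and monounsaturated very long chains, the kind that peroxisomes shorten, and was the most abundant of the 10 genes per length of transcript. It lies on chromosome 4 from 118428093 to 118432953 (plus strand). It measured 187, 205 and 184 CPM in control and 206, 155 and 169 CPM in the 3 Pex5-deficient ones. The groups overlapped, with the highest and the lowest value both in Pex5-deficient libraries. The log2 fold change was -0.12 ± 0.13 (95% interval -0.42 to 0.18, adjusted p = 0.682 by edgeR). The exons of Elovl1 share 53 bases with those of Cdc20 on the opposite strand, 1.94% of their length.

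Hacd2, a dehydratase of the elongation cycle, rose. It lies on chromosome 16 from 35022428 to 35109177 (plus strand), behind the promoter stretch printed above. It measured 23.2, 22.1 and 19.8 CPM in control and 34.6, 29.1 and 30.3 CPM in the 3 Pex5-deficient ones. Each Pex5-deficient library was above each control library, and the mean went from 21.7 ± 1.72 to 31.3 ± 2.89 CPM (SD, n = 3 per group). This is a 1.44-fold rise, with a log2 fold change of 0.53 ± 0.11 (95% interval 0.26 to 0.79, adjusted p = 0.0463 by edgeR). By the size of its p it was gene 342 of 11011. Among fits with no replicate term, it lost the call without Pex5-deficient replicate 1 (adjusted p = 0.155) or 3 (0.0887), without control replicate 1 (0.118), 2 (0.131) or 3 (0.135), with limma-voom (0.0572), with a filter at a mean of 5 CPM (0.0532) and with scaling by library size alone (0.131). It was kept when Pex5-deficient replicate 2, which stood apart, was removed (0.0399). The log2 fold change stayed between 0.45 and 0.69 over all 14 alternative settings. The exons of Hacd2 share 32 bases with those of Gm21691 on the opposite strand, 0.854% of their length. Of the 100-base words in its longest transcript 3.46% also occur in Gm7908.

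Elovl6, which lengthens palmitate to stearate, fell. It lies on chromosome 3 from 129532355 to 129638495 (plus strand), and its counts were 69, 191 and 102 in control and 36, 46 and 34 in the 3 Pex5-deficient ones. In CPM these were 5.40, 10.9 and 6.89 in control and 2.82, 1.93 and 1.92 in Pex5-deficient libraries. The groups did not overlap, and control replicate 2 was the highest library by a wide margin. The mean fell from 7.74 ± 2.87 to 2.22 ± 0.513 CPM, which is 3.55-fold lower, with a log2 fold change of -1.83 ± 0.31 (95% interval -2.53 to -1.12, adjusted p = 0.0206 by edgeR). It was gene 142 of 11011 by the size of its p. Among fits with no replicate term, the call was lost without Pex5-deficient replicate 1 (adjusted p = 0.0511) or 3 (0.0533) and without control replicate 2 (0.053) or 3 (0.0518). It was kept when Pex5-deficient replicate 2 (0.0453) or control replicate 1 (0.038) was removed. With a filter at a mean of 5 CPM Elovl6 was not tested. The log2 fold change ran from -2.03 to -1.49 over the 13 alternative settings in which Elovl6 was tested, the smallest fall being the one without control replicate 2. The exons of Elovl6 share 34 bases with those of Gm35986 on the opposite strand, 0.529% of their length. Of the 100-base words in its longest transcript 0.974% also occur in Gm11295.

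Scd2, a stearoyl-CoA desaturase that makes oleate and palmitoleate, lies on chromosome 19 from 44293674 to 44306864 (plus strand). It varied more within the groups than between them. It measured 23.6, 44.7 and 30.2 CPM in control and 38.5, 22.4 and 21.9 CPM in the 3 Pex5-deficient ones, and the groups overlapped. The log2 fold change was -0.27 ± 0.27 (95% interval -0.89 to 0.36, adjusted p = 0.648 by edgeR). Removing control replicate 2 gave 0.02 and removing Pex5-deficient replicate 1 gave -0.58, so either library moves it by more than its standard error.

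The genes of polyunsaturated chains did not pass the test, and their differences had opposite signs. Elovl5, which lengthens polyunsaturated chains, is on chromosome 9 from 77917364 to 77984519 (plus strand). It measured 84.5, 88.8 and 69.4 CPM in control and 70.0, 60.1 and 62.1 CPM in the 3 Pex5-deficient ones. The groups overlapped between control replicate 3 and Pex5-deficient replicate 1 alone, and the log2 fold change was -0.34 ± 0.12 (adjusted p = 0.182 by edgeR). Fads1, the delta-5 desaturase, is on chromosome 19 from 10182888 to 10196877 (plus strand). It measured 6.49, 10.3 and 6.01 CPM in control and 19.1, 10.5 and 10.8 CPM in the 3 Pex5-deficient ones. The groups did not overlap, but control replicate 2 and Pex5-deficient replicate 2 were nearly level. The log2 fold change of Fads1 was 0.81 ± 0.29 (95% interval 0.14 to 1.47, adjusted p = 0.182), and removing Pex5-deficient replicate 1 gave 0.48 while removing control replicate 2 gave 1.10.

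Fads2, the delta-6 desaturase that acts before Fads1 in the same route, lies beside it on chromosome 19 from 10062765 to 10101746 (minus strand) and was close to the limit of detection. Its counts were 0, 8 and 4 in control and 8, 16 and 0 in the 3 Pex5-deficient ones. A count of 0 allows up to 3 counts, which is 0.211 CPM of the library total in control replicate 1 and 0.155 CPM in Pex5-deficient replicate 3. A difference between the groups was not detectable for Fads2 at this depth. Fads1 transcripts were thus present in libraries where those of the preceding desaturase were at or near 0.

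**Figure D2:**
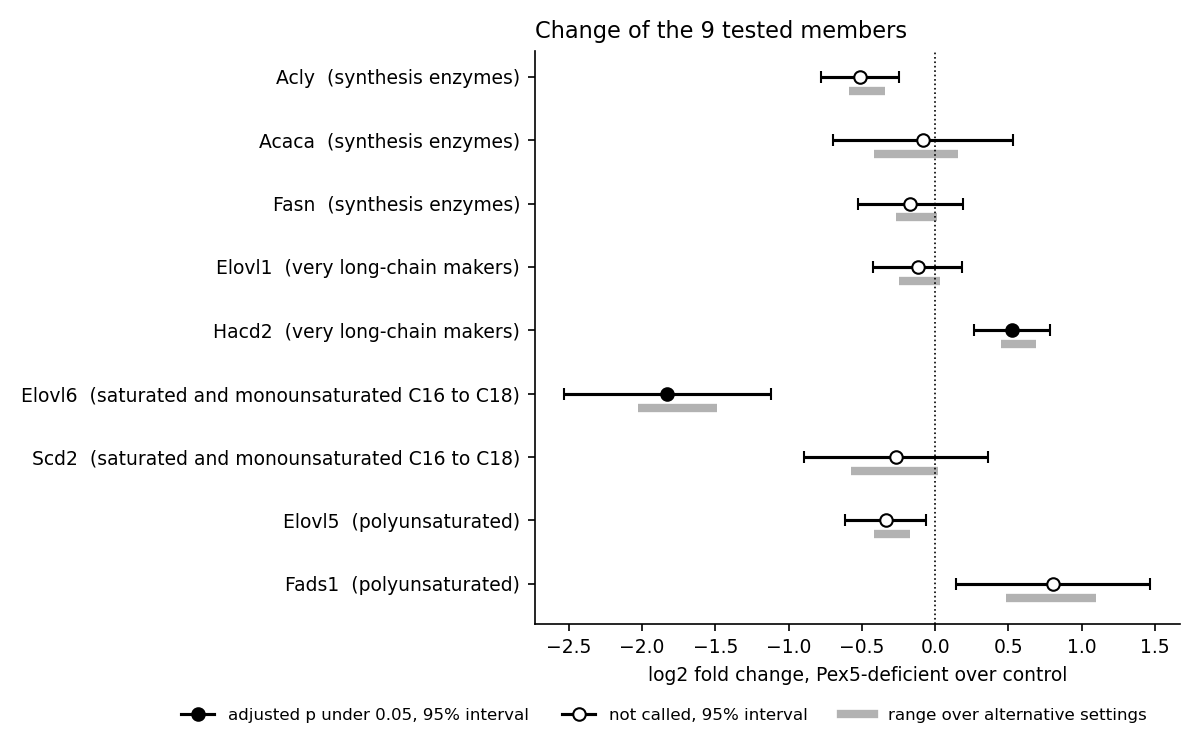
Log2 fold change, Pex5-deficient over control (x axis), of the 9 tested genes with 95% intervals, n = 3 per group, filled where the adjusted p was under 0.05, and in grey the range over the alternative settings. Elovl6 at -1.83 and Hacd2 at 0.53 are the filled points, and the intervals of Acaca, Fasn, Elovl1 and Scd2 span 0.

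Of the 9 tested genes 7 had a negative and 2 a positive log2 fold change, with a median of -0.17 against -0.00 over all genes tested. For 4 of the 9 the CPM of the groups did not overlap, Hacd2 and Fads1 higher and Elovl6 and Acly lower. Of all tested genes 26.1% had groups that did not overlap, 13.0% higher and 13.1% lower. The median of the 9 genes moves with the scaling, since scaling by library size alone shifted the median of all genes to 0.17. Under it the signs of Acaca (0.16), Fasn (0.011) and Elovl1 (0.034) turned positive, while Elovl6 stayed at -1.66 and Acly at -0.34.

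The makers of very long chains were next set against the enzymes of synthesis within each library, as ratios of read counts, which do not depend on the scaling. 6 ratios were computed, and in 3 of them the groups did not overlap. Elovl1 to Acly was 0.685, 0.746 and 0.701 in control and 0.992, 0.832 and 0.979 in the 3 Pex5-deficient ones, a 1.31-fold higher ratio. Ratios of Elovl1 to all other tested genes with counts in every library were higher without overlap for 3.94% of genes. That share holds Elovl1 fixed and not Acly, which was itself lower in each Pex5-deficient library. The ratio to Fasn did not separate the groups, at 5.54 to 7.03 in control and 5.81 to 7.16 in Pex5-deficient libraries, nor did the ratio to Acaca.

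Hacd2 to Acly was 0.0853, 0.0806 and 0.0756 in control and 0.166, 0.156 and 0.175 in the 3 Pex5-deficient ones, which is 2.06-fold higher. Hacd2 to Fasn was 0.837, 0.598 and 0.758 in control and 1.12, 1.09 and 1.28 in Pex5-deficient libraries, 1.60-fold higher. The ratio of Hacd2 to Acaca overlapped, with Pex5-deficient replicate 2 at 3.22 inside the control range of 2.78 to 3.59. For Hacd2 the background is wide, since its ratio was higher without overlap against 59.9% of all other tested genes. The exact permutation test over libraries, two-sided, gave p = 0.1 for each of the 3 separated ratios, the smallest that 3 against 3 can give, and 0.2 after adjustment over the 6. So Elovl1 and Hacd2 both stood higher relative to Acly, and Hacd2 but not Elovl1 relative to Fasn. This rests on separation of the libraries and not on a test that could pass. Acly itself was 1.43-fold lower in Pex5-deficient libraries, and Elovl1 was not higher (log2 fold change -0.12). The higher Elovl1 to Acly ratio therefore restates the lower Acly level. Ratios of all other genes to Acly were not computed.

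**Figure D3:**
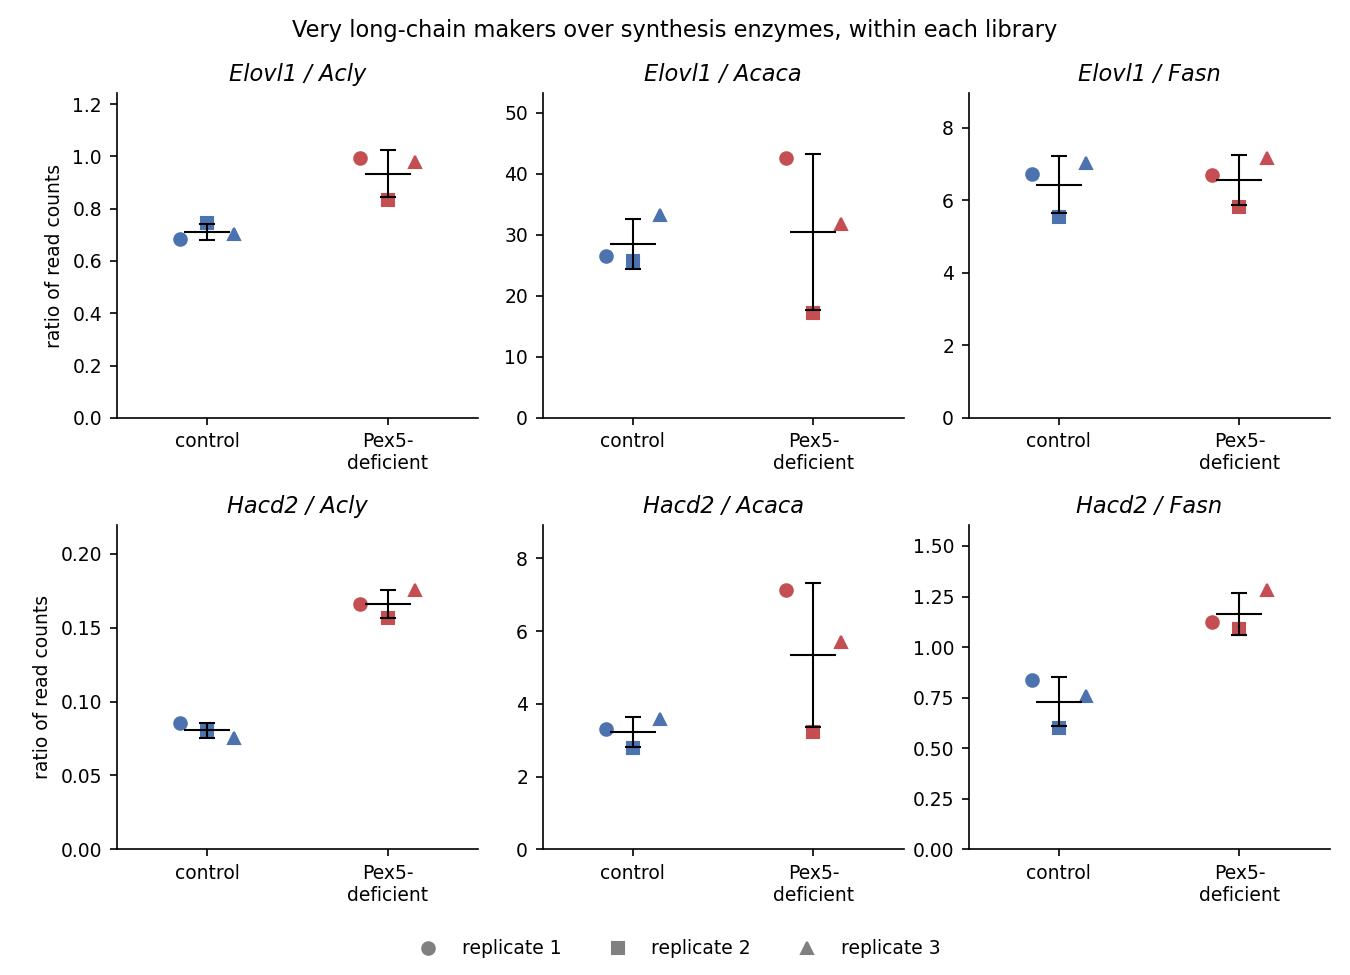
Ratio of read counts (y axis, from 0) of Elovl1 and Hacd2 to Acly, Acaca and Fasn in each library, control in blue and Pex5-deficient in red, with mean and SD in black, n = 3 per group. The ratios to Acly separate the groups for both makers, that to Fasn separates them for Hacd2, and those to Acaca overlap.

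Shares of the counts of an enzyme family compare its genes inside each library. Elovl6 gave 1.95%, 3.59% and 2.64% of the counts of the 7 elongase genes in the 3 control libraries, with exact 95% binomial intervals from 1.52% to 4.12% over the 3 libraries. In the Pex5-deficient ones it gave 1.01%, 0.889% and 0.818%, with intervals from 0.567% to 1.39%. Elovl1 took 67.2% to 70.5% in control and 71.3% to 73.8% in Pex5-deficient libraries. Its exact 95% binomial intervals overlapped between control replicate 3 (69.0% to 71.9%) and Pex5-deficient replicate 2 (70.0% to 72.5%). A share depends on the other genes of its family, and Elovl1 itself was not higher in CPM (log2 fold change -0.12). Elovl5 took 26.6% to 30.5% and 25.0% to 27.7%, which overlap. Elovl2, Elovl3, Elovl4 and Elovl7 did not pass the filter on low counts.

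Hacd2 gave 12.7%, 14.3% and 11.6% of the counts of the 4 dehydratase genes in control and 17.9%, 17.8% and 15.5% in the 3 Pex5-deficient ones. The shares did not overlap, but their exact 95% binomial intervals did, at 13.0% to 15.6% in control replicate 2 and 14.3% to 16.7% in Pex5-deficient replicate 3. Its relatives Hacd3 (log2 fold change 0.07), Hacd4 (0.03) and Hacd1 (-0.06) were not called. Scd2 gave 82.1% to 85.8% of stearoyl-CoA desaturase counts in control and 74.0% to 92.4% in Pex5-deficient libraries, a wider spread around the same level. Scd1 gave nearly all of the rest. The intervals cover counting error only, since reads amplified by PCR are not independent molecules.

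**Figure D4:**
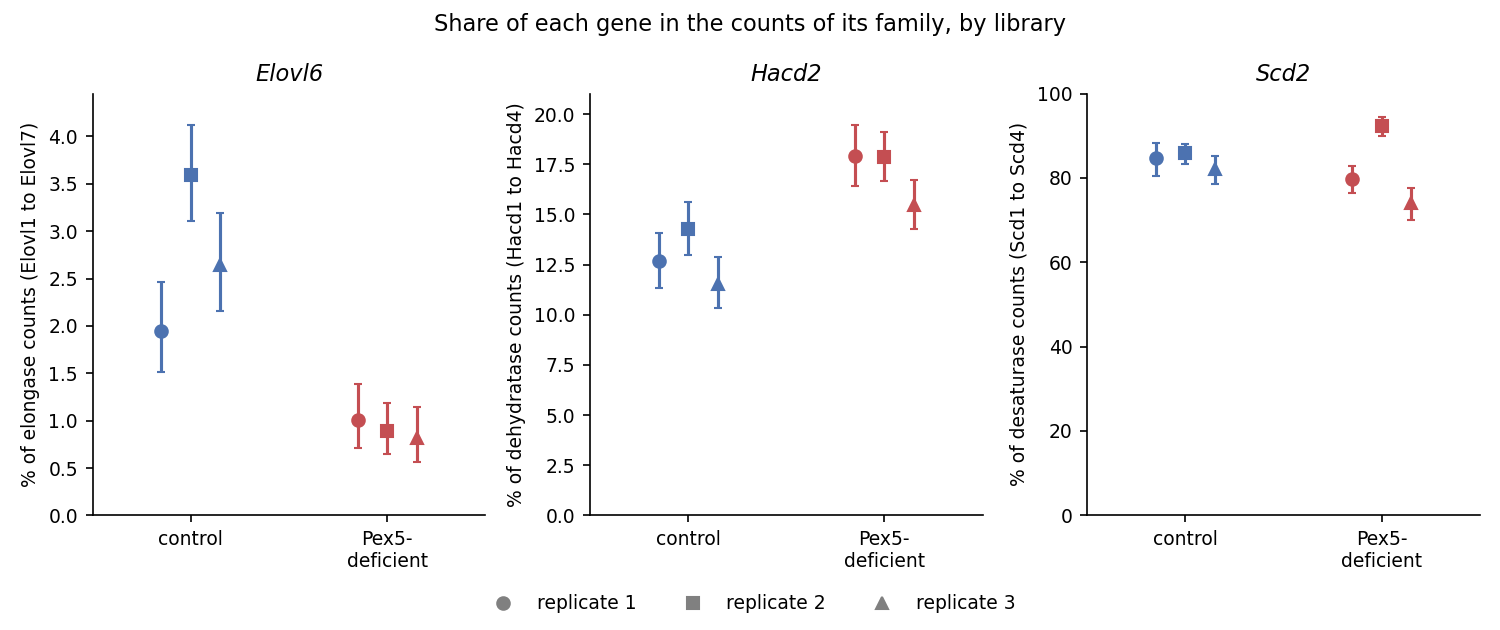
Share (y axis, percent, from 0) of Elovl6 in the counts of Elovl1 to Elovl7, of Hacd2 in Hacd1 to Hacd4 and of Scd2 in Scd1 to Scd4, by library, with exact 95% binomial intervals for counting error, control in blue and Pex5-deficient in red. Elovl6 falls from 1.95% or more to 1.01% or less, Hacd2 is at 14.3% or less in control and 15.5% or more in Pex5-deficient libraries, and Scd2 overlaps.

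Per kilobase of exon, on the TMM-scaled CPM, the order of levels in control libraries was Elovl1 at 70.4 ± 4.13, Acly at 51.1 ± 1.21, Elovl5 at 23.0 ± 2.89, Scd2 at 6.01 ± 1.97 and Hacd2 at 5.80 ± 0.460 (SD, n = 3). Fasn at 2.77 ± 0.530, Fads1 at 1.58 ± 0.489, Elovl6 at 1.20 ± 0.446, Acaca at 0.401 ± 0.0717 and Fads2 at 0.0737 ± 0.0699 followed. Scd2 and Hacd2 overlapped in that order, as did Fads1 and Elovl6, and the libraries of the other neighbours did not overlap. In Pex5-deficient libraries Hacd2 at 8.35 ± 0.770 stood above Scd2 at 5.05 ± 1.73, and Fads1 at 2.80 ± 1.01 overlapped with Fasn at 2.47 ± 0.330. Elovl6 at 0.346 ± 0.0798 overlapped there with Acaca at 0.375 ± 0.134, above which it stood without overlap in control libraries. The level per length therefore spans from the abundant Elovl1, Acly and Elovl5 to Fads2, the lowest in both groups. Fasn, Fads1, Elovl6 and Acaca were at a few CPM per kilobase or less. The Acaca value divides by 17074 bases of exon, while its longest transcript has 9513 bases, so its place in the order depends on the measure.

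Inside each group a single library carried most of the high values. Control replicate 2 was the highest control library for 8 of the 9 tested genes, all but Hacd2, while it was highest for 28.0% of all tested genes (control replicate 1 for 37.4%, control replicate 3 for 34.6%). Relative to the mean of the other control libraries, Elovl6 was 1.78-fold, Scd2 1.66-fold, Fads1 1.65-fold and Fasn 1.37-fold in it, against a median of 0.984-fold over all tested genes. Pex5-deficient replicate 1 was likewise the highest of its group for 8 of the 9, all but Acaca, against 30.0% of all tested genes (38.0% for replicate 2 and 32.0% for replicate 3). There Fads1 was 1.79-fold, Scd2 1.74-fold and Elovl6 1.46-fold the mean of the other Pex5-deficient libraries. Control replicate 2 had the largest total count of its group and Pex5-deficient replicate 1 the smallest. These libraries were singled out after their values were seen, and what the libraries share beyond these genes was not tested.

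The other genes of the pathway were read beside all tested genes. Of 68 further genes in lists of synthesis, NADPH supply, elongation, desaturation, transcriptional control, acyl-CoA activation and regulation by AMPK, 50 were tested. Among them 1 was called higher and 0 lower by edgeR, where 3.25% of all tested genes were called. An unadjusted p under 0.05 was found for 8, where 18.9% of all tested genes had one. Few calls do not show few differences, since 22.9% of simulated 1.5-fold changes were recovered. With the members included, synthesis had 0 of 8 tested genes called and a median log2 fold change of 0.03. The list mixes cytosolic and mitochondrial synthesis, with 4 values positive and 4 negative. Acly, Acaca and Fasn were all negative, with a median of -0.17, while Acss2 was at 0.19 and Slc25a1 at -0.14. The mitochondrial genes named next were positive, and none of the list was called. Mcat, the mitochondrial malonyl transferase, had 0.46 ± 0.19 (adjusted p = 0.239) and Mecr, a reductase of mitochondrial synthesis, 0.25 ± 0.13 (adjusted p = 0.323). Elongation had 1 of 9 higher and 1 lower, which are Hacd2 and Elovl6, with a median of -0.06. The remaining steps of the cycle, the reductases Hsd17b12 at 0.21 ± 0.15 (adjusted p = 0.502) and Tecr at -0.10 ± 0.10 (adjusted p = 0.655), were not called.

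Desaturation had 0 of 8 called and a median of 0.02. Cyb5r3, the reductase that passes electrons through cytochrome b5 to the desaturases, measured 1115, 1128 and 1087 CPM in control and 735, 688 and 900.0 CPM in the 3 Pex5-deficient ones. Those libraries did not overlap, yet Cyb5r3 was not called (log2 fold change -0.52 ± 0.17, adjusted p = 0.136), nor was Cyb5r4, a related reductase (0.35 ± 0.12, adjusted p = 0.144). NADPH supply had 0 of 5 called and a median of -0.18. G6pdx, the entry enzyme of the pentose phosphate pathway, had -0.42 ± 0.13 (adjusted p = 0.123), and Pgd, the most abundant of that list, -0.27 ± 0.17 (adjusted p = 0.439).

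Among 14 tested genes of transcriptional control 1 was called and the median was 0.05. Nr1h3, which encodes the liver X receptor alpha, an activator of lipogenic genes, rose from 46.5, 48.0 and 49.8 CPM in control to 127, 96.5 and 113 CPM in the 3 Pex5-deficient ones (log2 fold change 1.22 ± 0.12, adjusted p = 0.00314). Srebf1, which encodes the main transcription factor of fatty acid synthesis, was the most abundant of the list by the mean of both groups. By the mean of the control libraries it was also the highest, though not in each of them. Nr1h3 was above Srebf1 in each Pex5-deficient library. Srebf1 measured 95.8, 80.8 and 88.2 CPM in control and 79.6, 93.1 and 84.6 CPM in Pex5-deficient libraries, with a log2 fold change of -0.04 ± 0.11 (adjusted p = 0.884). Insig1, which holds the SREBP proteins in the endoplasmic reticulum and is itself their target, had 0.53 ± 0.17 (adjusted p = 0.128). Of the 9 tested members, Hacd2 (0.53) and Fads1 (0.81, not called) differed in the direction of Nr1h3. The other 7, Elovl6 among them, had negative log2 fold changes. The transcript of Srebf1 differed by less than the spread between libraries. A link between these regulators and the members was not tested.

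Markers of other cells that a lavage sort could hold were read beside these results. Alveolar type II cells make surfactant lipid and are rich in the same enzymes. Their defining transcript Sftpc was at 0.675 to 1.49 CPM in control and 0.170 to 0.626 CPM in Pex5-deficient libraries, and 0 of the 10 markers of that list were at 0 in all libraries. The summed level of the list was 126 to 153 CPM in control and 92.0 to 107 CPM in Pex5-deficient libraries, most of it from Napsa and Abca3, and 0 of its 5 tested genes were called. Of airway epithelium Scgb1a1 was at 0.452 to 1.25 CPM. Epcam fell from between 41.9 and 129 CPM to between 12.7 and 13.9 CPM. It was called (log2 fold change -2.75, adjusted p = 0.0081 by edgeR). That list summed to 43.0 to 131 CPM in control and 13.8 to 14.5 CPM in Pex5-deficient libraries, nearly all of it Epcam. Of its 6 markers 1 was at 0.

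Of 10 neutrophil markers 5 were at 0 in all libraries, S100a9, Retnlg, Ly6g, Camp and Ngp. S100a8 (log2 fold change 2.07) and Cxcr2 (2.17) rose and were called. Mmp8 (0.90) was not called, nor was Csf3r, which went the other way (-0.52). The neutrophil list summed to 84.5 to 98.6 CPM in control and 125 to 188 CPM in Pex5-deficient libraries. Mmp8 was the most abundant over all libraries and Csf3r in control libraries. All 6 markers of dividing cells were tested and 0 were called. They summed to 156 to 176 CPM in control and 131 to 162 CPM in Pex5-deficient libraries, with Top2a the most abundant at -0.50 (adjusted p = 0.0654). Monocyte and interstitial macrophage markers summed to 3.11 to 6.82 CPM over all libraries, most of it Ccr2, with 2 of 8 at 0. Lymphocyte markers (5 of 8 at 0), dendritic cell markers (1 of 5) and endothelial and fibroblast markers (2 of 6) summed to at most 0.798 CPM in any library, their most abundant being Zbtb46, and all 4 eosinophil markers were at 0. The part of the differing marker lists in the values of Elovl6, Hacd2 and Acly was not tested.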

How the data were processed

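RNA of sorted alveolar macrophages was measured in 6 libraries, 3 per genotype, made per the labels' protocols with a stranded SMART-Seq kit and sequenced as single-end reads of 100 bases. The values are gene counts that the authors deposited as 1 table, whole numbers with 1 column per library. The builds GRCm38.p5 and mm10 and the programs DESeq2 1.40.1, featureCounts, STAR and R 4.3.2 are named, with no order, per the submitters' processing notes. Not given in the sources used here: annotation, strand setting and the versions of STAR and featureCounts. Without the strand setting, reads of antisense genes cannot be told apart.

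Genes were filtered with filterByExpr (minimum count 10, minimum total 15), scaled by TMM and tested with edgeR 4.0.16 (glmQLFit, glmQLFTest, two-sided) in R 4.3.3, adjusted over all 11011 genes tested. Each standard error is the log2 fold change over the root of its F value. DESeq2 1.42.0 and limma-voom (limma 3.58.1) were alternatives, beside other scalings, filters, a replicate block and leaving out each library. Depth was 13325609 to 19413838 counts. On simulated counts for this comparison (10922 genes tested on average) 22.9% of 1.5-fold, 63.8% of 2-fold and 98.5% of 4-fold changes were recovered. Gene models, exon lengths (union of exons) and shared 100-base words come from GENCODE M21, promoters from RefSeq on GRCm38.p6. Pathway genes were named where called, where they had the 2 smallest p of their list, or as its most abundant gene, and for markers likewise the most abundant and the called ones. Hacd1, Hacd3, Hacd4, Acss2, Slc25a1, Abca3, Sftpc, Scgb1a1 and the markers at 0 were named beside them. The members and lists were chosen with earlier results of these data known.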

Additional observations from a re-analysis of the deposited data

How the results depend on the processing

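Counts of all called genes (358) were 237 with a mean of at least 5 CPM, 755 with DESeq2 and 83 with the replicate block, and 76 to 523 when single libraries were left out, the lowest without control replicate 1 (117 without Pex5-deficient replicate 1, 219 without 3, 181 without control replicate 2, 136 without 3). Scaling by library size alone called 289 genes higher and 132 lower, against 192 and 166. Of the 10 members, 2 were called in the reported fit, 1 with library size only, 1 with limma-voom, 0 with the replicate block, 0 to 2 when single libraries were left out, and 0 with a mean of at least 5 CPM, where Elovl6 had too few counts to be tested and Hacd2 had an adjusted p of 0.0532. DESeq2 called Acly as well. The labels do not say whether the replicate numbers pair the libraries. Correlations of same-numbered deviations gave no sign of it (-0.21, -0.06 and -0.41), but 3 libraries per group cannot settle it. With that block Elovl6 had -1.79 (adjusted p = 0.0864) and Hacd2 0.53 (adjusted p = 0.139). The signs of Acly, Elovl5, Elovl6, Hacd2 and Fads1 held under all settings run. Uncalled members changed sign with library size only, to 0.16 for Acaca, 0.011 for Fasn and 0.034 for Elovl1. Leaving out single libraries gave -0.42 to 0.073 for Acaca, -0.27 to 0.00018 for Fasn and -0.58 to 0.023 for Scd2. With library size only the list medians were 0.25 for synthesis, -0.0063 for NADPH supply, 0.10 for elongation and 0.13 for desaturation. The median of desaturation was -0.089 with limma-voom, -0.082 with the replicate block and -0.20 to 0.13 when single libraries were left out. The log2 difference of the Elovl1 to Acaca ratio ran from -0.28 to 0.38 and that of Elovl1 to Fasn from -0.074 to 0.11 when single libraries were left out, an alternative chosen after seeing the data, while that of Elovl1 to Acly stayed at 0.35 to 0.47. The cause of these differences between settings was not tested. Elovl6, with 34 to 191 counts, and Fads2, with 0 to 16, are the members that depth limits most.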

Other observations

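Of the genes that attach CoA to fatty acids or carry the product, 0 of 9 tested were called by edgeR and the median log2 fold change was -0.04, with 1 at an unadjusted p under 0.05. Acsl3, a long-chain acyl-CoA synthetase, measured 2.50, 2.58 and 2.09 CPM in control and 4.38, 3.03 and 3.45 CPM in the 3 Pex5-deficient ones, without overlap (log2 fold change 0.58 ± 0.24, adjusted p = 0.243). Acbd5, an acyl-CoA-binding protein of the peroxisomal membrane that receives very long-chain acyl-CoA, was at 65.2, 48.4 and 44.5 CPM in control and 36.4, 38.1 and 50.4 CPM in Pex5-deficient libraries, which overlap (-0.34 ± 0.18, adjusted p = 0.336). Dbi, the abundant acyl-CoA-binding protein, had -0.14 ± 0.14 (adjusted p = 0.655). Of the genes of AMPK, the kinase that inhibits acetyl-CoA carboxylase, 0 of 6 tested were called and the median was -0.03, again with 1 at an unadjusted p under 0.05. Stk11, which encodes its upstream kinase LKB1, had 0.65 ± 0.26 (adjusted p = 0.223), with Pex5-deficient replicate 2 the highest at 13.0 CPM. Prkab2, a beta subunit, had -0.42 ± 0.22 (adjusted p = 0.349), and Prkag1, the most abundant subunit, -0.03 ± 0.10 (adjusted p = 0.891).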
